A study of Mus musculus with 6 samples.

Results

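The genes described here encode the gamma-secretase complex, the membrane proteases that prepare Notch for it, and a substrate that both enzymes share. They are 9 listed symbols, *Aph1a*, *Aph1b*, *Aph1c*, *Psen2*, *Psenen*, *Ncstn*, *Adam10*, *Adam17* and *App*, each matched by symbol to its Ensembl gene ID. They make up 9 of the 32493 genes counted, and 9 of 9 were among the 16710 genes that passed a filter on low counts and were tested. RNA-seq was performed on neural stem cells (NSCs) taken from the brains of E14.5 mice and cultured for 3 generations in a DMEM/F12 medium with B27. The cko mice carried miR-151 flanked by loxP sites on both alleles (fl/fl) together with Emx1-IRES-Cre, which drives Cre recombinase in the dorsal telencephalon. Their controls, called wt in the sample labels, carried the same fl/fl alleles and no Cre, and both genotypes had a C57BL/6J background. The study treats *Aph1a* as a gene targeted by miR-151-5p, from target prediction, a luciferase assay and western blots of APH1A protein. The comparison of cko with wt asks how the enzyme's transcripts differ when the miRNA is deleted. These libraries measure RNA and not protein.

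The counts summed to 22773559 and 18950862 in wt libraries 1 and 3, and to 17883796, 23335736 and 21736269 in cko libraries 1, 2 and 3. The column for wt replicate 2 equalled the mean of wt libraries 1 and 3, rounded up, in 32493 of 32493 genes, so it was left out and the groups were 2 wt and 3 cko libraries. Levels are CPM (counts scaled to the library total) after TMM normalization, and 3 counts correspond to 0.129 to 0.168 CPM, a floor that covers counting error only. The labels do not say whether the libraries of a genotype came from separate embryos or cultures. The p-values therefore measure the spread between these libraries, which may be technical. The 2 wt libraries stood further apart than the cko libraries did, with more than a 2-fold difference in 713 of 14347 genes, against 116 to 219 genes between pairs of cko libraries. The deleted miRNA has no entry in the counted table and gives no check of the labels. Its host gene *Ptk2* was at 133 and 149.6 CPM in wt libraries 1 and 3 and at 142, 138 and 139.9 CPM in cko libraries 1, 2 and 3, and the groups overlapped (log2 fold change -0.01, adjusted p = 0.943 in edgeR, with 0.08 without wt library 3 and -0.10 without wt library 1).

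As background, gamma-secretase is an aspartyl protease of the membrane, with presenilin as its catalytic subunit, nicastrin as its large glycoprotein, APH1 as a scaffold and PEN2 as the subunit that allows presenilin to mature. Notch is first cut outside the membrane by ADAM10 or ADAM17 after ligand binding, and gamma-secretase then cuts the remaining stub inside the membrane and frees the intracellular domain. In the embryonic brain this signal is known for keeping progenitors from differentiating.

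Of the 9 genes, 2 rose in cko NSCs, *Aph1b* and *Adam10*, and 2 fell, *Psen2* and *App*, by edgeR's quasi-likelihood test (threshold, 0.05 after Benjamini-Hochberg adjustment over all tested genes). The other 5 did not pass. Over all tested genes 7.86% were higher and 8.57% lower by the same test, and among so few genes each call moves the share of members, 22.2% in each direction, by a large step. The members were also chosen with earlier results of these data known. Over the table the counts of higher and lower genes, 1314 and 1432, were 853 and 907 without cko library 1, 317 and 416 without cko library 2, and 336 and 457 without cko library 3. In 4 of 9 genes every cko library lay above both wt libraries and in 2 of 9 every cko library lay below them, against 25.4% and 24.3% of the tested genes. The sizes were small. In only 1 of 9 genes, *Psen2*, did the log2 fold change exceed 0.5 in size, and the median over the 9 was -0.08, against a median of -0.0026 over all tested genes. At the study's threshold, a log2 fold change beyond 0.9 with an unadjusted p under 0.01, edgeR called 0 of the 9 and DESeq2 called 0, against 6.55% of all tested genes in edgeR, while 4 of the 9 had an unadjusted p under 0.05. In bulk libraries, fewer cells of a type and less RNA per cell cannot be told apart. Each of the 4 calls was lost without cko library 2 and without cko library 3, and the adjusted p-values are given with each gene.

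**Figure D1:**
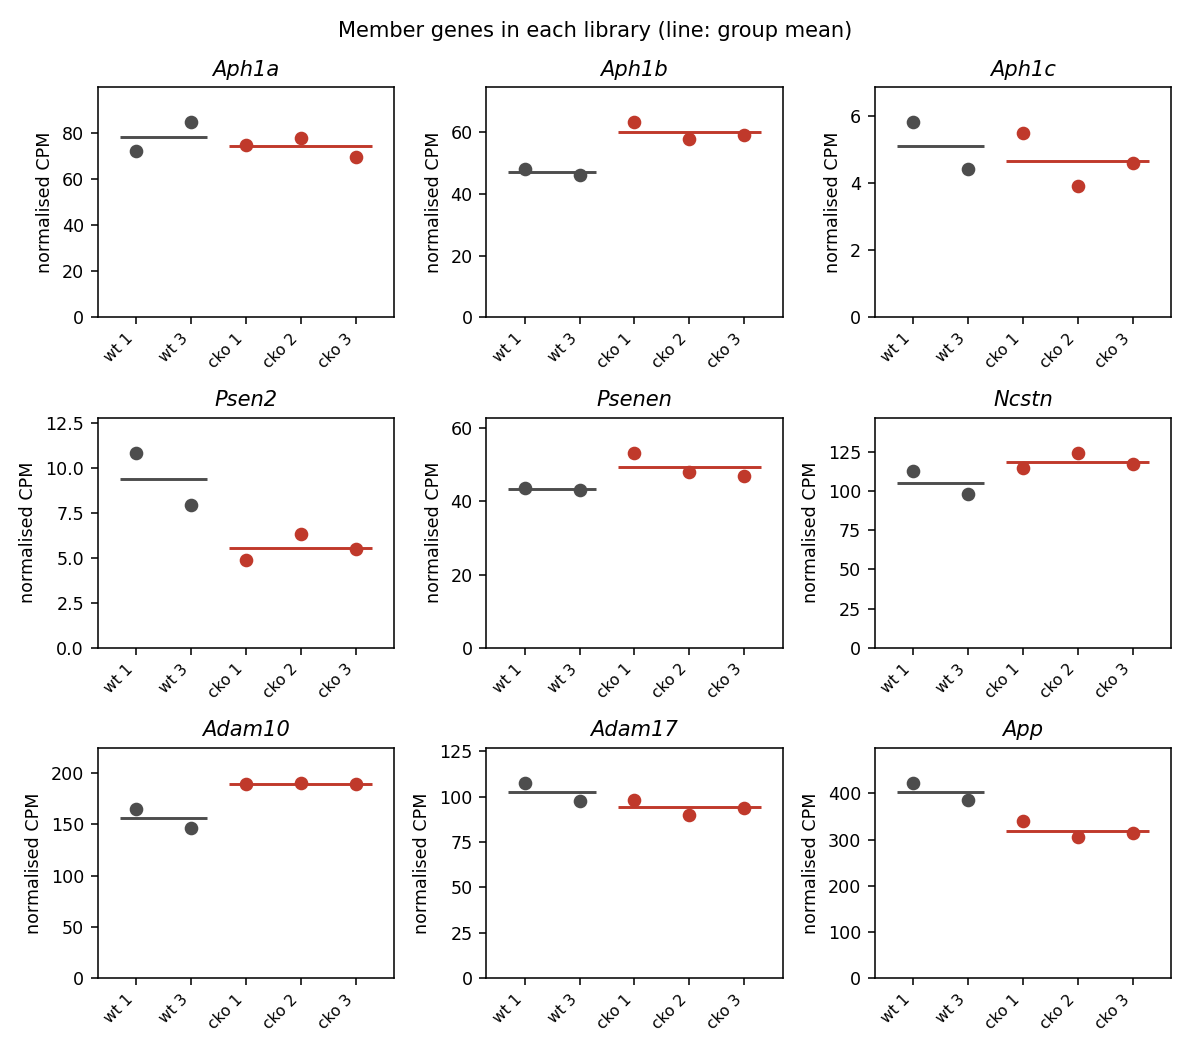
Normalised CPM (y axis, from 0) of each of the 9 genes in the 5 libraries (x axis; grey, wt; red, cko), with lines at the group means. The cko libraries lie above both wt libraries for *Aph1b*, *Psenen*, *Ncstn* and *Adam10*, and below them for *Psen2* and *App*.

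The cells were checked against marker genes before the members were read. Of 8 neural stem cell markers, 8 were tested, 2 were higher and 1 lower (0 lower without cko library 2, 2 lower without wt library 3). Their summed level was 7983 and 7005 CPM in wt libraries 1 and 3 and 8826, 8233 and 8127 CPM in cko libraries 1, 2 and 3, with *Vim* the most abundant. *Emx1*, the gene whose promoter drives Cre, stayed below 1 CPM in all 5 libraries, at 0.437 and 0.480 CPM in wt libraries 1 and 3 and at 0.0560, 0.172 and 0.276 CPM in cko libraries 1, 2 and 3.

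Markers of other states moved with the genotype. Of 9 oligodendrocyte lineage genes, 4 were lower (among them *Mbp*, *Myrf* and *Sox10*) and 2 higher (*Olig1*, the most abundant, and *Olig2*), with sums of 2756 and 3379 CPM in wt libraries 1 and 3 against 3226, 3511 and 3371 CPM in cko libraries 1, 2 and 3. Of 6 astrocyte genes, 3 were lower and none reached 0 in any library, and their sum was 2019 and 1036 CPM in wt libraries 1 and 3 and 960.2, 548 and 579 CPM in cko libraries 1, 2 and 3. *Gfap* was the most abundant in wt library 1, at 1008 CPM against 178 CPM in wt library 3, and *Slc1a2* in the other 4 libraries. All 5 proliferation genes were higher, and they summed to 717 and 797 CPM in wt libraries 1 and 3 and to 1485, 1947 and 1857 CPM in cko libraries 1, 2 and 3. *Mki67* was the most abundant of them in every library except wt library 3, where *Top2a* was. Of 8 neuronal genes, led by *Map2*, 7 were tested, 2 were higher and 1 lower (3 and 2 without wt library 1), and they summed to 1262 and 1133 CPM in wt libraries 1 and 3 and to 1285, 1274 and 1305 CPM in cko libraries 1, 2 and 3. *Xist*, expressed from the inactive X chromosome, was at 2889 and 2557 CPM in wt libraries 1 and 3 and at 787, 849 and 894 CPM in cko libraries 1, 2 and 3, while 4 of 4 Y-linked genes were present in all 5 libraries and higher in cko (3 without cko library 1 or cko library 3). Without cko library 2 or cko library 3 no oligodendrocyte lineage gene was higher (1 without cko library 1) and 4 were lower in each case, and 1 astrocyte gene was lower. The astrocyte calls also changed without wt library 1 or wt library 3, fits that leave 1 wt library, and went both ways without wt library 1. Microglial genes were under 1 CPM in every library for 6 of 6 genes, with *Cx3cr1* and *Tmem119* at 0, while endothelial genes summed to 4.02 to 6.71 CPM with *Cdh5* at 0, and fibroblast and mural genes to 1.29 to 4.06 CPM. The parts of oligodendrocyte lineage, astrocyte, neuronal, proliferating and sex-linked expression in the results for the 9 genes were not tested.

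The APH1 scaffold has 3 genes in the mouse. Of these *Aph1b* rose in cko NSCs, while *Aph1a*, the most abundant per length, and *Aph1c*, the least abundant, did not pass the test. *Aph1a* lies apart from the others, at chr3:95893969-95898288 on the plus strand of GRCm38. *Aph1b* (chr9:66775202-66795490) and *Aph1c* (chr9:66814994-66834726) are neighbours on the minus strand, 19503 bp apart. The names follow the Ensembl gene IDs, and as RefSeq lists each of these 2 names as a synonym of the other gene, the position identifies which copy is meant. Their coding sequences were equal in 745 of 774 aligned bases (96.3%) and their proteins, of 257 and 258 residues, in 246 of 257 aligned positions (95.7%). *Aph1a* and *Aph1b* were equal in 63.3% of aligned coding bases and 56.8% of aligned residues.

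The first 30 coding bases of each gene, in exon 1 from the start codon on, are shown because they let the copies be told apart. Capitals mark bases that differ from *Aph1b* in the sequences of *Aph1a* and *Aph1c*, and from *Aph1c* in that of *Aph1b*. *Aph1a* (chr3:95894171-95894200, plus strand of GRCm38) had 7 such bases, and *Aph1b* (chr9:66795336-66795365) and *Aph1c* (chr9:66834569-66834598), both on the minus strand, had 6.
Aph1a: atgGGggctgcTgtgttTttCggAtgcAcc
Aph1b: atgacgGCTGcGgtgttcttTggttgcgcc
Aph1c: atgacgCTGCcTgtgttcttCggttgcgcc
From coding base 22 to 51, still in exon 1, the 2 neighbours read alike, at chr9:66795315-66795344 in *Aph1b* and chr9:66834548-66834577 in *Aph1c* (minus strand), with no base to mark.
Aph1b and Aph1c: ggttgcgccttcatcgccttcgggcccgcg
In 19.7% of the 50-nt windows of the coding *Aph1b* transcript, and in 9.37% of its 100-nt windows, the same bases occurred in *Aph1c*, with a longest shared stretch of 341 nt in the coding part. No 50-nt window was shared between *Aph1a* and *Aph1b*. How the authors' counting treated reads that fit both *Aph1b* and *Aph1c* is not given in the sources used here, so their separate counts are uncertain.

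*Aph1b* (ENSMUSG00000032375) was at 48.1 and 46.1 CPM in wt libraries 1 and 3 and at 63.1, 57.7 and 58.9 CPM in cko libraries 1, 2 and 3. The 3 cko libraries were all higher, by more than either genotype's own spread, and the groups did not overlap. From 47.0 ± 1.42 CPM (SD, n = 2) to 59.9 ± 2.84 CPM (SD, n = 3), the log2 fold change was 0.35 (standard error 0.08, 95% interval 0.16 to 0.54), with an adjusted p of 0.0283 in edgeR. The call was lost without cko library 1 (adjusted p = 0.0746), cko library 2 (0.0992) or cko library 3 (0.115), where the log2 fold change was 0.30, 0.37 and 0.35. With the counts of *Aph1b* and *Aph1c* summed as 1 gene, an alternative chosen after seeing the data, the log2 fold change was 0.31 (adjusted p = 0.0471).

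*Aph1a* (ENSMUSG00000015750) was at 72.1 and 84.5 CPM in wt libraries 1 and 3 and at 74.9, 77.9 and 69.4 CPM in cko libraries 1, 2 and 3. The highest value was that of wt library 3 and the lowest that of cko library 3, while wt library 1 lay among the cko libraries, so the groups overlapped. The log2 fold change was -0.08 (standard error 0.10, 95% interval -0.31 to 0.15), and the adjusted p was 0.613 in edgeR. Its sign followed a single control, with a log2 fold change of 0.04 without wt library 3 and of -0.20 without wt library 1. *Aph1a* shares 445 bp of its exons, 12.9%, with *Car14* on the opposite strand, and since the strand setting of the counts is not given in the sources used here, reads there cannot be told apart. *Car14*, a carbonic anhydrase gene, had 109 and 59 counts in wt libraries 1 and 3 and 57, 60 and 59 in cko libraries 1, 2 and 3, against 1338 to 1816 counts for *Aph1a*.

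*Aph1c* (ENSMUSG00000053040) had few counts, 133 and 83 in wt libraries 1 and 3 and 98, 91 and 100 in cko libraries 1, 2 and 3. These gave 5.81 and 4.43 CPM in the wt libraries and 5.48, 3.90 and 4.60 CPM in the cko libraries. The groups overlapped, with wt library 1 highest and cko library 2 lowest. The log2 fold change of -0.14 had a 95% interval from -0.69 to 0.40 (adjusted p = 0.714 in edgeR), which includes the log2 fold change of *Aph1b*. Whether the few counts or the spread between libraries set the width of this interval was not tested. Without wt library 1 the log2 fold change of *Aph1c* was 0.06, and without wt library 3 it was -0.32. It was -0.28, -0.04 and -0.14 without cko libraries 1, 2 and 3.

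The *Aph1* genes were also read together as a pool of scaffold transcripts. Their summed level was 31.3 and 34.3 CPM per kb of merged exon in wt libraries 1 and 3 and 35.0, 34.5 and 32.4 CPM per kb in cko libraries 1, 2 and 3, and the groups overlapped. The share of *Aph1a* in that sum was 66.7% and 71.5% in wt libraries 1 and 3 and 62.0%, 65.4% and 62.1% in cko libraries 1, 2 and 3. Each cko library had a lower share of *Aph1a* than either wt library, and wt library 1 and cko library 2 were close. The mean share was 69.1 ± 3.37% (SD, n = 2) in wt and 63.2 ± 1.95% (SD, n = 3) in cko, a difference of -5.93 points. The two-sided exact permutation test gave p = 0.2, the smallest that 3 against 2 libraries allow. The difference was -3.55 points without wt library 3. *Aph1b* held 29.7% and 26.0% of the sum in wt libraries 1 and 3 and 35.0%, 32.4% and 35.2% in cko libraries 1, 2 and 3, a difference of 6.31 points, and *Aph1c* held 2.17% to 3.56% in the 5 libraries.

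**Figure D2:**
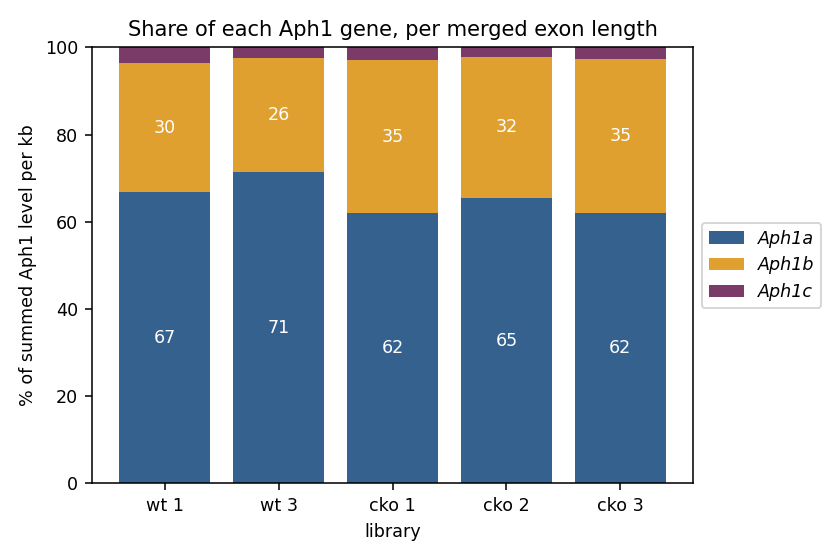
Share (y axis, %) of *Aph1a*, *Aph1b* and *Aph1c* in their summed level per kb of merged exon, in each of the 5 libraries (x axis), with shares above 8% printed in the bars to the nearest whole percent. *Aph1a* takes the largest share in each library, 66.7% and 71.5% in wt and 62.0% to 65.4% in cko.

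The 3 tested genes whose pattern over the 5 libraries was most like that of *Aph1a*, by the Euclidean distance of log2 CPM centred on each gene's mean, were *Sdhc* (distance 0.0311), *Pde12* (0.0437) and *Tmed1* (0.0445). Like *Aph1a*, each was highest in wt library 3. *Sdhc* was at 166 and 191 CPM in wt libraries 1 and 3 and at 170.1, 177 and 161 CPM in cko libraries 1, 2 and 3.

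Among the other subunits, the presenilin *Psen2* fell, and *Psenen* and *Ncstn* had higher values in every cko library without passing the test. *Psen2* (ENSMUSG00000010609, chr1:180227004-180263438, minus strand), which encodes a catalytic subunit, was at 10.8 and 7.95 CPM in wt libraries 1 and 3 and at 4.87, 6.34 and 5.47 CPM in cko libraries 1, 2 and 3. The cko libraries were all lower, and wt library 3 lay nearer to cko library 2 than to wt library 1. The mean went from 9.39 ± 2.04 CPM (SD, n = 2) to 5.56 ± 0.743 CPM (SD, n = 3), a log2 fold change of -0.76 (standard error 0.21, 95% interval -1.24 to -0.27) with an adjusted p of 0.0462 in edgeR. These levels rest on 87 to 248 counts. The call was kept without wt library 3 (log2 fold change -0.95, adjusted p = 0.0104) and lost without wt library 1 (-0.52, 0.125), cko library 1 (-0.68, 0.116), cko library 2 (-0.87, 0.0994) or cko library 3 (-0.75, 0.151).

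*Psenen* (ENSMUSG00000036835, chr7:30561863-30563627, minus strand), the gene of PEN2, was at 43.7 and 43.0 CPM in wt libraries 1 and 3 and at 53.2, 48.1 and 47.0 CPM in cko libraries 1, 2 and 3. The wt libraries were nearly equal and the cko libraries above them spread more widely, with cko library 1 highest. The log2 fold change was 0.19 (standard error 0.09, 95% interval -0.02 to 0.39, adjusted p = 0.186 in edgeR), and it was 0.12 without cko library 1. It shares 119 bp of exon with *U2af1l4* and 111 bp with *Gm49396* on the opposite strand, genes with 2 to 12 and 93 to 168 counts in a library against 806 to 1121 for *Psenen*.

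*Ncstn* (ENSMUSG00000003458, chr1:172066013-172082795, minus strand), which encodes nicastrin, was at 112 and 98.2 CPM in wt libraries 1 and 3 and at 114, 124 and 117 CPM in cko libraries 1, 2 and 3. The groups did not overlap, but wt library 1 and cko library 1 were closer to each other than the 2 wt libraries were. The log2 fold change was 0.17 (standard error 0.09, 95% interval -0.03 to 0.37, adjusted p = 0.216 in edgeR), and it was 0.08 without wt library 3 and 0.26 without wt library 1. *Ncstn* shares 195 bp, 4.91% of its exons, with *Copa* on the opposite strand, which had 6269 to 8037 counts in a library against 1840 to 2900 for *Ncstn*, and reads there could be counted for either.

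**Figure D3:**
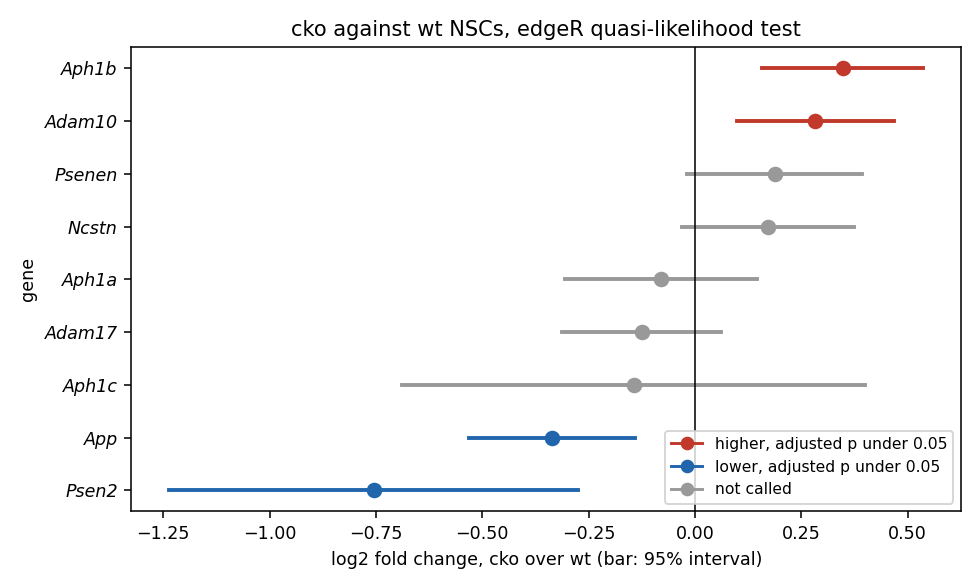
Log2 fold change of cko over wt (x axis) of the 9 genes (y axis) in edgeR, with 95% intervals as bars (red, higher; blue, lower; grey, not called). *Aph1b* and *Adam10* lie above 0, *App* and *Psen2* below it, and the intervals of the other 5 genes include 0.

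Of the sheddases, *Adam10* rose and *Adam17* did not pass the test. *Adam10* (ENSMUSG00000054693, chr9:70678997-70780229, plus strand) encodes the protease that makes the ligand-dependent cut in Notch and also cleaves APP. It was at 166 and 147 CPM in wt libraries 1 and 3 and at 189.6, 190.3 and 189.9 CPM in cko libraries 1, 2 and 3. The cko libraries were nearly equal, and both wt libraries lay below them. The mean went from 156 ± 13.4 CPM (SD, n = 2) to 189.9 ± 0.362 CPM (SD, n = 3), and the log2 fold change was 0.28 (standard error 0.08, 95% interval 0.10 to 0.47). The adjusted p of 0.0495 in edgeR was just inside the threshold. It was 0.0503 with median-of-ratios size factors and 0.0524 under a stricter filter of 10 counts in each library, both beyond it. The call was kept without wt library 1 (log2 fold change 0.36, adjusted p = 0.0102) and lost without wt library 3 (0.20, 0.0884), cko library 1 (0.28, 0.105), cko library 2 (0.27, 0.181) or cko library 3 (0.27, 0.176).

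*Adam17* (ENSMUSG00000052593, chr12:21323509-21373632, minus strand), the gene of the enzyme that also releases tumour necrosis factor from cells, was at 107 and 97.9 CPM in wt libraries 1 and 3. In cko libraries 1, 2 and 3 it was at 98.4, 90.2 and 93.8 CPM. The highest value was that of wt library 1, and wt library 3 lay just below cko library 1, so the groups overlapped. The log2 fold change was -0.13 (standard error 0.08, 95% interval -0.31 to 0.06, adjusted p = 0.320 in edgeR), and it was -0.07 without wt library 1 and -0.19 without wt library 3. That the sheddases *Adam10* and *Adam17* differ in their response to genotype was not tested. *Adam17* shares 311 bp of exon, 4.35%, with *Iah1* on the opposite strand, which had 326 to 531 counts in a library against 1758 to 2458 for *Adam17*.

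The substrate *App* fell in cko NSCs. It encodes the amyloid precursor protein, which ADAM10 cleaves in its outer part and gamma-secretase in the membrane. *App* (ENSMUSG00000022892, chr16:84949685-85173766, minus strand) was at 422 and 385 CPM in wt libraries 1 and 3 and at 339.9, 305 and 314 CPM in cko libraries 1, 2 and 3. All cko libraries were lower than both wt libraries, with a gap between wt library 3 and cko library 1 larger than the spread within either genotype. The mean went from 403 ± 26.3 CPM (SD, n = 2) to 319.5 ± 18.2 CPM (SD, n = 3), which gave a log2 fold change of -0.34 (standard error 0.08, 95% interval -0.53 to -0.14) and an adjusted p of 0.0350 in edgeR. The call was kept without wt library 1 (adjusted p = 0.0438), wt library 3 (0.0105) or cko library 1 (0.0448), and lost without cko library 2 (0.158) or cko library 3 (0.145). The log2 fold change of *App* stayed between -0.40 and -0.28 when a library was left out.

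**Figure D4:**
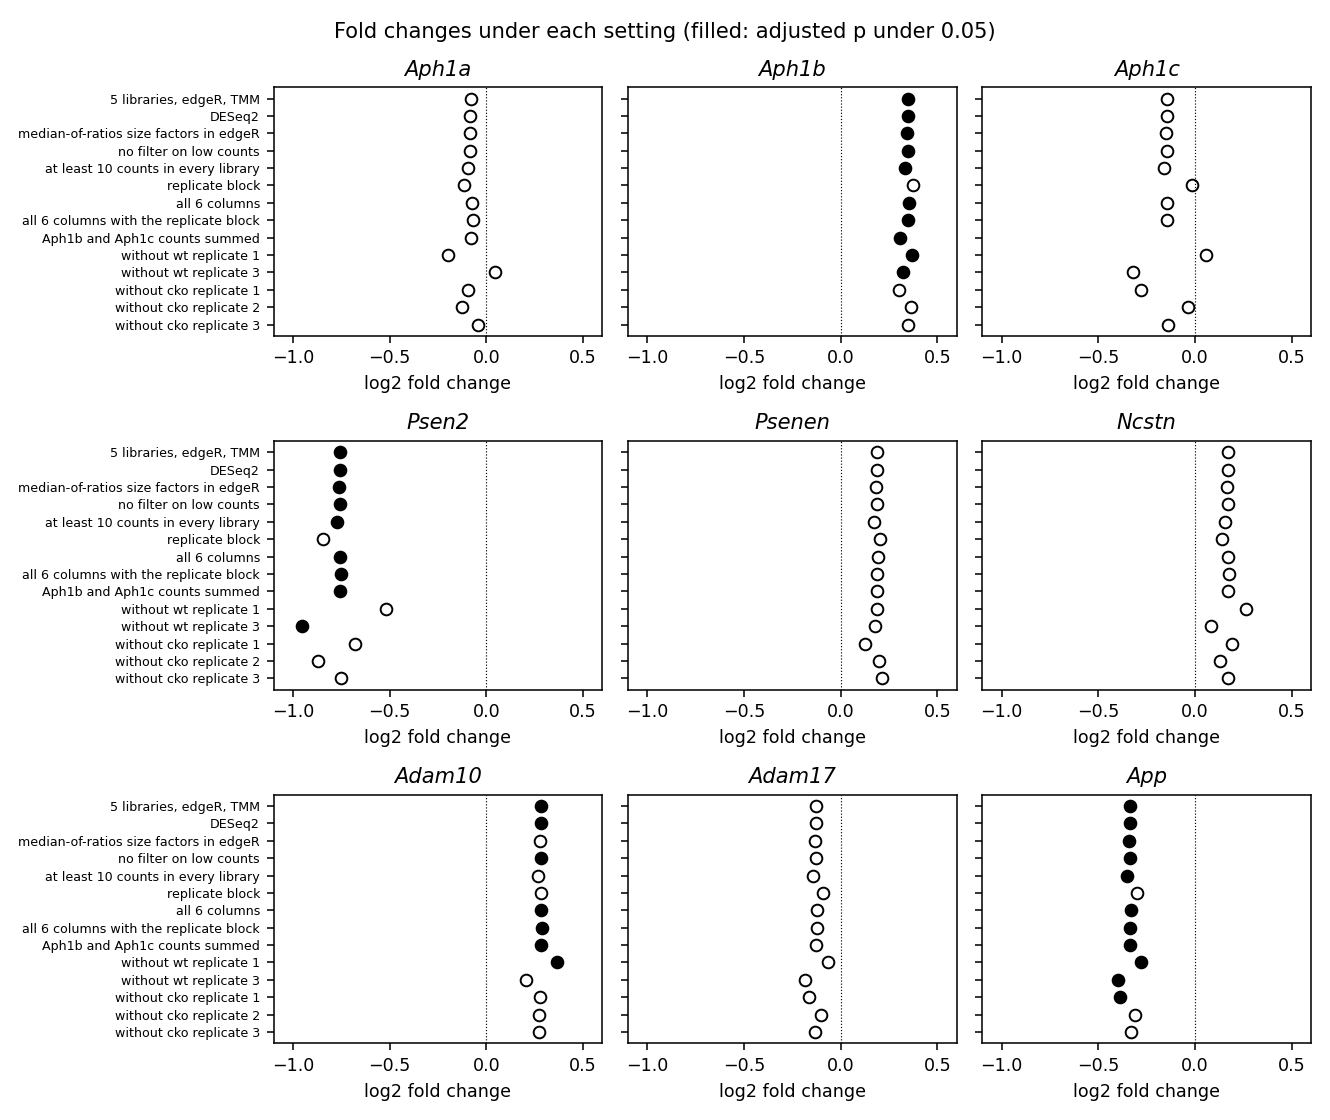
Log2 fold change (x axis) of each of the 9 genes under each setting (y axis), with filled points where the adjusted p was under 0.05. The points of *Aph1b*, *Adam10*, *Psen2* and *App* keep their side of 0 and are filled in some settings only, and those of *Aph1a* and *Aph1c* fall on both sides of 0 and are filled in none.

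Pairs of libraries, each cko library against each wt library, show how far the 4 calls stand clear of the spread. For *Aph1b* the log2 ratio of cko over wt was 0.26 to 0.45 in the 6 pairs, and the log2 ratio of wt library 1 over wt library 3 was 0.06. For *Adam10* it was 0.20 to 0.38, with 0.18 between the wt libraries. For *App* it was -0.47 to -0.18 and for *Psen2* -1.15 to -0.33, with 0.13 and 0.45 between the wt libraries. Thus in *Psen2* the closest cko and wt libraries differed by less than the 2 wt libraries did, while in the other 3 genes the closest pair differed by more. For *Aph1a* the cko library was above the wt library in 2 of 6 pairs, with log2 ratios from -0.28 to 0.11.

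Levels were compared between the 9 genes only per length, as the mean over the 5 libraries in CPM per kb of merged exon. *Psenen* had the highest level, 36.9 CPM per kb, followed by *Adam10* at 35.9, *Ncstn* at 28.5, *App* at 27.2 and *Aph1a* at 22.0 CPM per kb. Neighbours among these 5 overlapped in their range over the 5 libraries. Within a genotype the level of *App* was above that of *Ncstn* in wt, at 29.6 to 32.5 against 24.7 to 28.3 CPM per kb, and below it in cko, at 23.5 to 26.2 against 28.8 to 31.3 CPM per kb. Below them came *Adam17* at 13.6, *Aph1b* at 10.6, *Psen2* at 1.64 and *Aph1c* at 0.931 CPM per kb, and none of these overlapped its neighbours in the order, *Aph1a* included. Thus *Psen2* and *Aph1c* were the scarce transcripts of the complex, although the lowest *Psen2* library, cko library 1 with 1.12 CPM per kb, and the highest *Aph1c* library, wt library 1 with 1.12 CPM per kb, almost met. Divided by the longest transcript, which is 708 bp for *Psenen* and 8167 bp for *App*, the level of *Psenen* became 66.4 CPM per kb, clear of *App* at 43.2, *Adam10* at 38.4 and *Ncstn* at 37.6 CPM per kb. On that scale *App*, at 47.1 to 51.7 CPM per kb, was above *Adam10* (31.9 to 36.0) and *Ncstn* (32.6 to 37.3) in wt. In cko its level of 37.3 to 41.6 CPM per kb overlapped those of *Adam10* (41.3 to 41.4) and *Ncstn* (37.9 to 41.2). The genes below *Aph1a* kept their order.

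The 9 genes were set beside 7 lists of genes that act with them, 109 genes in all, of which 105 were tested. The lists were chosen with earlier results of these data known, so the shares called in them are no independent test. Of the 105 tested genes 11 rose (10.5%) and 21 fell (20%), against 7.86% and 8.57% of all tested genes. Their median log2 fold change was -0.06. Without cko library 2 the counts were 3 and 5, and without cko library 3 they were 3 and 6. Without wt library 3, 18 rose.

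Among 10 genes for the assembly and regulation of gamma-secretase, 1 rose and 2 fell (median -0.11). *Gsap*, the gamma-secretase activating protein, had a log2 fold change of 0.56, *Bsg* of -0.70 (-0.39 without wt library 3) and *Ifitm3*, at 0.783 to 3.74 CPM, of -1.56. Their calls were lost without cko library 1 (adjusted p = 0.0588, 0.0665 and 0.0627 in that order), cko library 2 (0.130, 0.0964 and 0.0704) or cko library 3 (0.123, 0.0940 and 0.0869), and that of *Ifitm3* also without wt library 3 (0.0594). Of 5 presenilin-related proteases 3 were tested, with *Sppl2c* below the filter and *Hm13* not analysed here. In edgeR and in DESeq2, 0 of the 3 were called, while 2 had an unadjusted p under 0.05 in edgeR (median -0.01).

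Of 16 partners of ADAM10 and ADAM17, 15 were tested, 1 rose and 4 fell (median -0.18). Of the 6 tetraspanins in the list, which carry ADAM10 to the cell surface, *Tspan14* rose (log2 fold change 0.44), *Tspan17* fell (-1.20), 3 did not pass and 1 was below the filter. *Rhbdf2*, which carries ADAM17, was at 0.429 to 3.15 CPM and had a log2 fold change of -2.27. *Timp3*, an inhibitor of both sheddases, had -0.81, and *Timp4*, named after its value was seen, had -1.45, or -0.74 without wt library 3. Without cko library 2 the adjusted p was 0.0859 for *Tspan14*, 0.0525 for *Tspan17*, 0.0525 for *Rhbdf2*, 0.0547 for *Timp3* and 0.0887 for *Timp4*. Without cko library 3 it was 0.0597 for *Tspan14*, 0.0611 for *Tspan17*, 0.0571 for *Timp3* and 0.0899 for *Timp4*, which also missed without cko library 1 (0.0622).

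Of 8 other sheddases, 1 rose and 2 fell (median -0.01). *Mmp14* (log2 fold change -0.94) and *Adam15* (-0.79) kept their calls without each library in turn, and *Adam9* (0.47) lost it without cko library 2 (adjusted p = 0.0958) or cko library 3 (0.0977). *Bace1*, the beta-secretase that makes the other outer cut in APP, was at 81.1 to 83.3 CPM in wt and at 76.7 to 88.4 CPM in cko, with a log2 fold change of -0.02 (95% interval -0.23 to 0.18, adjusted p = 0.888 in edgeR).

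Of 19 genes of the *App* family and of APP handling, 18 were tested, 1 rose and 4 fell (median -0.04). *Aplp2*, a close relative of *App*, went the other way, at 577 and 574 CPM in wt libraries 1 and 3 and at 718, 736 and 768 CPM in cko libraries 1, 2 and 3 (log2 fold change 0.36, adjusted p = 0.0188 in edgeR). *Aplp1* had a log2 fold change of -0.14 and did not pass (adjusted p = 0.425), but it was past the threshold without wt library 1 (-0.30, 0.0463) and of the other sign without wt library 3 (0.04, 0.817). Among the 4 that fell the log2 fold change reached -1.08, and it was -0.52 for *Itm2c* and -0.45 for *Ide*, which degrades amyloid-beta. Without cko library 2 the adjusted p was 0.117 for *Aplp2*, 0.0948 for *Itm2c* and 0.0997 for *Ide*, and without cko library 3 it was 0.121, 0.0957 and 0.0968.

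**Figure D5:**
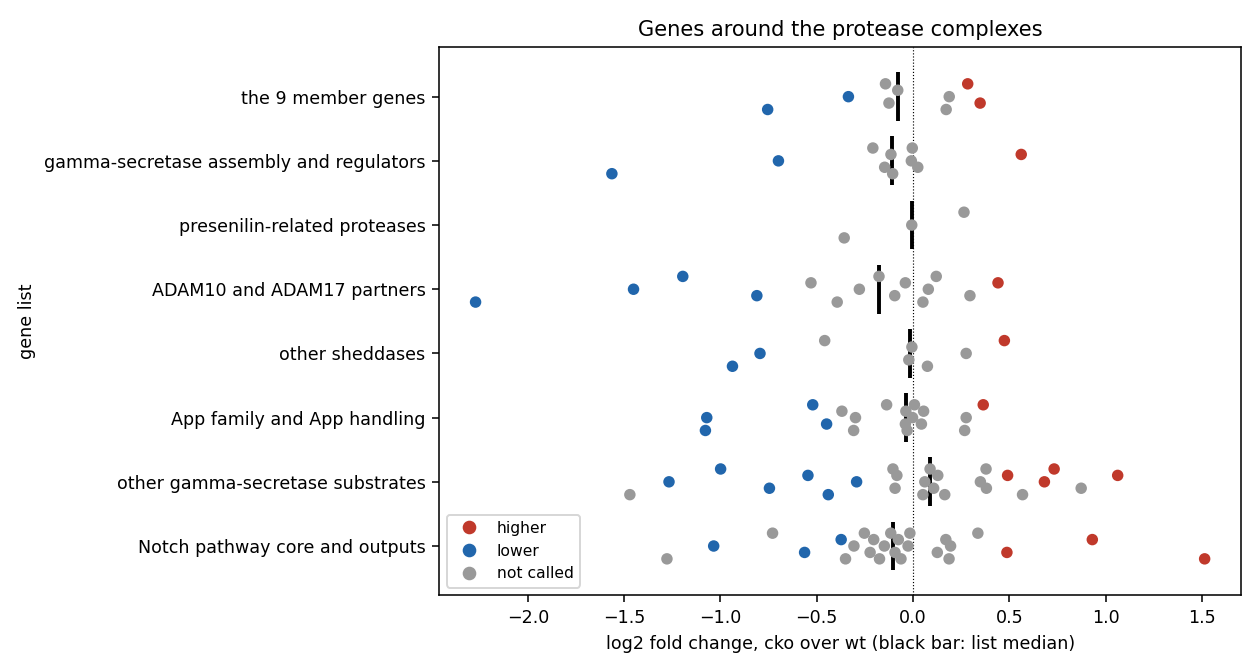
Log2 fold change of cko over wt (x axis) of each tested gene of the 7 lists and of the 9 genes (y axis), with black bars at the list medians (red, higher; blue, lower; grey, not called). The 9 genes lie between -0.76 and 0.35, and the genes that act with them reach from -2.27 to 1.51.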

How the data were processed

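The authors deposited raw counts per Ensembl gene, without normalization, in 6 columns. Per the study's methods the reads were quality checked with FastQC, filtered with NGSQC and aligned to mm10 with HISAT2, while the submitters' processing notes name GRCm39. The counting tool, the annotation and the strand setting are not given in the sources used here. The labels name an RNA column kit and a medium with antibiotics, and the methods TRIzol and a medium with EGF and bFGF. Gene symbols, positions and lengths were taken from GENCODE M21 on GRCm38, which named 31829 of the 32493 gene IDs. The other 664 held 0.223% to 0.342% of a library's counts. Sequences were read from the same release and genome, and coding sequences and proteins were aligned with Biopython 1.88.

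Counts of the 5 independent libraries were analysed with edgeR 4.0.16 in R 4.3.3, with its filter on low counts by genotype, TMM normalization and the quasi-likelihood test. Adjusted p-values cover all 16710 tested genes. The standard error is the log2 fold change divided by the square root of its F statistic. The steps were tested on simulated data. The alternatives tried were a fit with DESeq2 1.42.0, its size factors in edgeR, leaving the filter off, a minimum of 10 counts in every library, the replicate number as a block, all 6 columns, the study's threshold, other gene lengths and leaving out each library. Where 1 library of a genotype is left, it is assumed to vary like the other genotype. The sum of *Aph1b* and *Aph1c* and the longest coding transcript as length were chosen after seeing the data. Figures were drawn with matplotlib 3.10.9.

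The genes named are the 9 listed, for each list at most 3 called genes in each direction with the smallest p, *Hes1*, *Hes5*, *Notch1*, *Ptk2*, *N4bp1*, *Bace1*, *Aplp1* and *Aplp2* whatever their values, and the 3 genes most like *Aph1a*. Outside this rule stand the marker and overlapping genes and *Timp4*, which was named after its value was seen. The members and lists were chosen with earlier results of these data known. Some results that these rules give are not reported here.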

Additional observations from a re-analysis of the deposited data

How the results depend on the processing

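Of the 9 genes, 2 were higher and 2 lower in edgeR. With median-of-ratios size factors 1 was higher, with at least 10 counts in every library 1, and at the study's threshold 0 were higher and 0 lower. Without a library, 0 to 2 were higher and 0 to 2 lower. Over the table, 1314 genes were higher and 1432 lower. All 6 columns, which count the mean of the wt libraries as a sample, gave 2865 and 2794 (17 higher in the 7 lists, against 11), no filter gave 2237 lower, and the study's threshold gave 399 and 696 (3 higher and 10 lower in the lists, against 11 and 21). Without a library, 317 to 1812 were higher and 416 to 2062 lower, with 3 to 18 and 5 to 27 in the lists. The cause was not tested. The replicate block left 0 of the 9 higher and 0 lower, and with all 6 columns it gave 2675 higher and 2673 lower genes, and 19 higher in the lists. Among the independent libraries no wt library shares the number of cko library 2, so under the block that library adds nothing to the genotype difference. The fit without cko library 2 and without the block also called 0 of the 9 higher and 0 lower. Only 2 replicate numbers occur in both genotypes among the independent libraries. Deviations from the genotype mean correlated between libraries of the same number with r = 0.200 (replicate 1) and 0.0568 (replicate 3). The 16710 genes behind these values are not independent. With 2 wt libraries the wt deviations are equal and opposite, so both r values rest on the same wt difference. They do not settle whether a replicate number marks a shared origin. The study used littermates, but neither it nor the labels tie a number to a litter, so the numbers were used as names. With the replicate block the log2 fold change was 0.37 for *Aph1b* (adjusted p = 0.0644), -0.85 for *Psen2* (0.0615), 0.28 for *Adam10* (0.154) and -0.30 for *App* (0.136), and *Aplp2* (0.0906), *Cd44* (0.0965), *Gsap* (0.0517), *Ide* (0.0589) and *Mib2* (0.0861) lost their calls. The share of *Aph1a* in the summed *Aph1* level per kb differed by -5.56 points with the longest transcript as length, by -4.23 with the longest coding transcript, and by -8.31 to -3.55 without a library. Of all values of the 9 genes under other settings than the reported one, the block included, 97 stayed on the same side of the test and 19 lost the call. All 19 losses fell on *Aph1b*, *Psen2*, *Adam10* and *App*. The 97 include every value of the genes that were called in no setting, so they do not measure how stable the calls are. Of the 9 genes, *Aph1c* and *Psen2* had the fewest counts, at 83 to 248 in a library, and how far depth limits their results was not tested.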

Other observations

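Of 25 gamma-secretase substrates other than *App*, 4 rose and 6 fell in cko NSCs (median log2 fold change 0.09) by edgeR's test, against 7.86% higher and 8.57% lower over all tested genes. This list, like the others, was chosen with earlier results of these data known. *Notch1* was at 387 and 359 CPM in wt libraries 1 and 3 and at 498, 536 and 537 CPM in cko libraries 1, 2 and 3 (log2 fold change 0.49), and *Notch3* went the other way (-0.75). The ligand gene *Dll1* (0.73) and *Nrg1* (1.06) rose, and *Ptprk*, from 7.70 to 3.84 CPM on average, and *Cd44* (-0.55) fell. The calls of *Notch3*, *Dll1* and *Nrg1* held without each library. That of *Notch1* was lost without cko library 2 (adjusted p = 0.0685) or 3 (0.0653), that of *Ptprk* without the same libraries (0.0700 and 0.0731), and that of *Cd44* without these (0.130 and 0.0831), cko library 1 (0.0876) or wt library 1 (0.0709).

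Of 26 genes of the Notch core and its outputs, 3 rose and 3 fell (median -0.10). *Hes5*, *Hes1* and *Heyl*, known as genes that Notch activates, had log2 fold changes of 0.93, -1.04 and 1.51, the last at 0.917 to 3.86 CPM. *Maml2*, a coactivator, had 0.49, *Pofut2*, a fucosyltransferase, -0.56, and *Mib2*, a ubiquitin ligase for Notch ligands, -0.37. *N4bp1* had -0.31 and did not pass (adjusted p = 0.176), but was past the threshold without wt library 1 (-0.55, 0.00253) and with no filter (0.0238), and at -0.03 without wt library 3 (0.833). The calls of *Hes5*, *Hes1* and *Pofut2* held without each library. *Heyl* lost its call without wt library 1 (adjusted p = 0.0630), cko library 2 (0.10) or cko library 3 (0.112), *Maml2* without cko library 2 (0.0625) or 3 (0.0698), and *Mib2* without cko library 1 (0.0708), 2 (0.118) or 3 (0.0679).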
